A study of Homo sapiens with 2 samples.

Results

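A set of 10 genes that Wnt signalling switches on, most of which act back on the pathway, were followed at 84 annotated transcripts in LARP7 knockout cells. They are AXIN2, LEF1, TCF7, NKD1, LGR5, SP5, RNF43, ZNRF3, DKK1 and NOTUM, and they are 10 of the 57894 genes in the transcript tables once transcripts are joined to GENCODE release 29. They were taken by name, with every transcript of each gene. LARP7 is an RNA-binding protein that stabilises 7SK RNA, and the study asked how its loss affects RNA levels and splicing. Total RNA of HEK293, an established human embryonic kidney line, was sequenced from parental cells and from LARP7 knockout cells, with 2 libraries in each group. All knockout RNA comes from 1 clone, named 1-11, so other differences of that clone from the parental line cannot be told apart from the loss of LARP7. The title and the genotype field of the knockout sample say knockout, while 1 other field says wildtype. No source used here says whether the libraries of a group were separate cultures, and p-values below therefore measure a spread that may be technical. No Wnt ligand, inhibitor or other treatment is named for either group.

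When Wnt proteins bind Frizzled receptors and LRP co-receptors, the complex that destroys beta-catenin is held back, and beta-catenin enters the nucleus and joins the TCF and LEF transcription factors on their target genes. Several of these targets are themselves brakes or amplifiers of the pathway. AXIN2 rebuilds the destruction complex, RNF43 and ZNRF3 remove receptors from the surface, NKD1 binds Dishevelled, DKK1 and NOTUM act outside the cell, and LGR5 is a receptor for R-spondins, which protect Frizzled from removal. Their RNA levels are widely read as a gauge of pathway activity.

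TCF and LEF proteins bind a short core motif, searched here in 4 spellings on both strands. RefSeq start-site windows (GRCh38.p14) were found for SP5, DKK1, LEF1, TCF7 and RNF43, 7 windows in all, and each window covers 250 bases before and 50 bases after a start. At least 1 of the 4 motifs lay in 13.8% of all 35116 such windows. The spelling CTTTGAA lay in 4.43% of them, the spelling CTTTGAT in 2.62%, the spelling CTTTGTA in 2.77% and the spelling CTTTGTT in 5.20%, and these counts overlap. The SP5 window held 3 matches, at -148, -109 and -84 from the start, and the DKK1 window held 2, at -95 and -76. The second TCF7 window, at the start of TCF7-212 with 0 reads in every library, held 1 match at -50, and the other TCF7 window held none. The LEF1 window held none, but it lies at the downstream start of LEF1-218 and not at the start of LEF1-201, LEF1-202 or LEF1-203. Both RNF43 windows held none, and 1 of them is at the start of RNF43-202, which had 0 reads in every library. The stretches upstream of SP5 (chr2:170715087-170715336, plus strand) and DKK1 (chr10:52314031-52314280, plus strand) are shown because they hold more than 1 match, while both genes were among the 3 members with the lowest levels. Capitals mark the matches, read 5′ to 3′, where TTCAAAG is CTTTGAA on the other strand. The DKK1 stretch lies wholly inside an annotated exon of the antisense gene PRKG1-AS1, and the SP5 stretch lies in no annotated exon. A match is a run of letters and not a measured binding site.
SP5: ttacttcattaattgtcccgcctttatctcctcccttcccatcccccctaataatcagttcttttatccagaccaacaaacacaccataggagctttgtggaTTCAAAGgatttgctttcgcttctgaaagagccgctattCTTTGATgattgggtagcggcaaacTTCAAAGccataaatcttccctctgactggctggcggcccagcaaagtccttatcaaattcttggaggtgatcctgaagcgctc
DKK1: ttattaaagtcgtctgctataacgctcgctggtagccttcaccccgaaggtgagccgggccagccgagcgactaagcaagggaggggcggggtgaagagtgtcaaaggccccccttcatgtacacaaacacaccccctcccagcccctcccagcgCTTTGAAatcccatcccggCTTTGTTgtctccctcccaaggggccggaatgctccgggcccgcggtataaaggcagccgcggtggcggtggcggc

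The parental libraries held 18483220 and 12851942 estimated reads and the knockout libraries 16838501 and 16218587. Libraries of a group differed by more than counting noise (chi-square over degrees of freedom 27.3 in the parental pair and 8.01 in the knockout pair). Parental replicate 2 was the shallowest, had the shortest fragments by effective length (206.7 bases, against 217.0 in parental replicate 1 and 232.9 and 225.8 in the knockout) and held 44.1% of its TPM on small nuclear and ribosomal RNA genes, against 25.7 to 29.4% in the other libraries. LARP7 was at 59.8 and 46.5 CPM in parental cells, then 36.1 and 31.9 in knockout cells, where CPM is the read count scaled to a common library size with TMM factors (log2 fold change -0.65, SE 0.16, edgeR quasi-likelihood test with Benjamini-Hochberg adjustment, adjusted p = 0.135), and it passed in 6 of 15 other settings. The 7SK entry at its locus on chromosome 6 fell from 5572 and 5481 CPM to 169 and 205 (edgeR adjusted p = 1.13e-06). The 7 markers listed for HEK293 and kidney lineage summed to 159 to 307 TPM, most of it VIM, and PAX8 had 6 reads in parental replicate 1 and 0 elsewhere. The 22 markers of other cell types summed to 4.52 to 9.85 TPM, and 5 of them were at 0 in every library. Most of that sum was CDX2 (1.82 to 5.65 TPM) and COL1A1 (1.22 to 2.11 TPM). Of 18484 genes tested between the groups, 154 passed an edgeR adjusted p under 0.05, which is 0.833% (61 higher in the knockout, 0.33%, and 93 lower, 0.503%). With library size alone 106 were higher and 82 lower, and without parental replicate 1 or 2 the total was 2265 or 1825.

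To set the members side by side, their levels were taken per length. In the deposited TPM the median tested gene was 1.33-fold higher in the knockout (log2 0.41), so TPM was rescaled to 1 fixed sum over protein-coding genes, which left a shift of 0.15 on the log2 scale. On this scale LEF1 stood highest at 78.1 and 73.4 in parental cells, then 109 and 107 in knockout cells. TCF7 followed at 16.0 and 10.8 against 14.6 and 14.8, and ZNRF3 at 9.48 and 7.06 against 10.1 and 9.61. LEF1 thus exceeded every other member in every library. Transcripts annotated as processed, with no stated reading frame, held 72.6 and 55.5% of LEF1 TPM in parental cells, then 75.2 and 65.6% in knockout cells. LEF1 coding transcripts held 22.7 and 39.5% of LEF1 TPM in parental cells, then 22.4 and 27.4% in knockout cells. In deposited TPM, a different scale from the rescaled values, they stood at 8.21 and 9.98, then 12.2 and 13.6. That scale carries the 1.33-fold shift, so these values do not compare the groups. On the same deposited scale, TCF7 coding transcripts stood at 3.29 and 1.77 against 3.59 and 3.06. AXIN2 stood at 5.87 and 7.01 rescaled TPM in parental cells, then 10.8 and 6.46 in knockout cells. LGR5 stood at 4.80 and 4.13 against 5.19 and 4.80, NKD1 at 2.18 and 2.68 against 2.94 and 2.96, and RNF43 at 1.59 and 1.58 against 2.66 and 2.78. DKK1 stood at 0.888 and 1.24 against 1.34 and 0.666. At the bottom, SP5 and NOTUM reached at most 0.358 and 0.514. Within a group, the libraries of neighbours in the parental order did not overlap, except for SP5 and NOTUM in parental cells and ZNRF3 and AXIN2 in the knockout. In the knockout, NOTUM lay above SP5 in both libraries, on 3 reads against 1. Reads were found for each of the 10 members, and only for SP5 (parental replicate 1) and NOTUM (both parental libraries) was a library at 0.

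No member changed past the test between parental and knockout cells. Of the 10 members, 8 had enough reads to be tested and 0 passed the edgeR test over all genes, beside 0.833% of all genes. LEF1 lay at an unadjusted p under 0.05, which 14.3% of all tested genes did, and 0 members passed with DESeq2 or with limma voom, beside 2.48 and 0.812% of all genes. Of the 8 fitted changes, 6 were positive and 2 negative, beside 9299 and 9185 over all tested genes. The members' median log2 fold change was 0.08, against 0.002 over all tested genes. LEF1, NKD1 and RNF43 were higher in both knockout libraries than in both parental ones, 3 of 8, while 23.5% of all tested genes were, and 0 members were lower in both, against 22.7%. For 7 of the 8 the 95% interval of the fold change lay within 2-fold in either direction, and DKK1 was the exception. In bulk RNA, fewer cells that make a transcript and less of it per cell cannot be told apart.

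**Figure D1:**
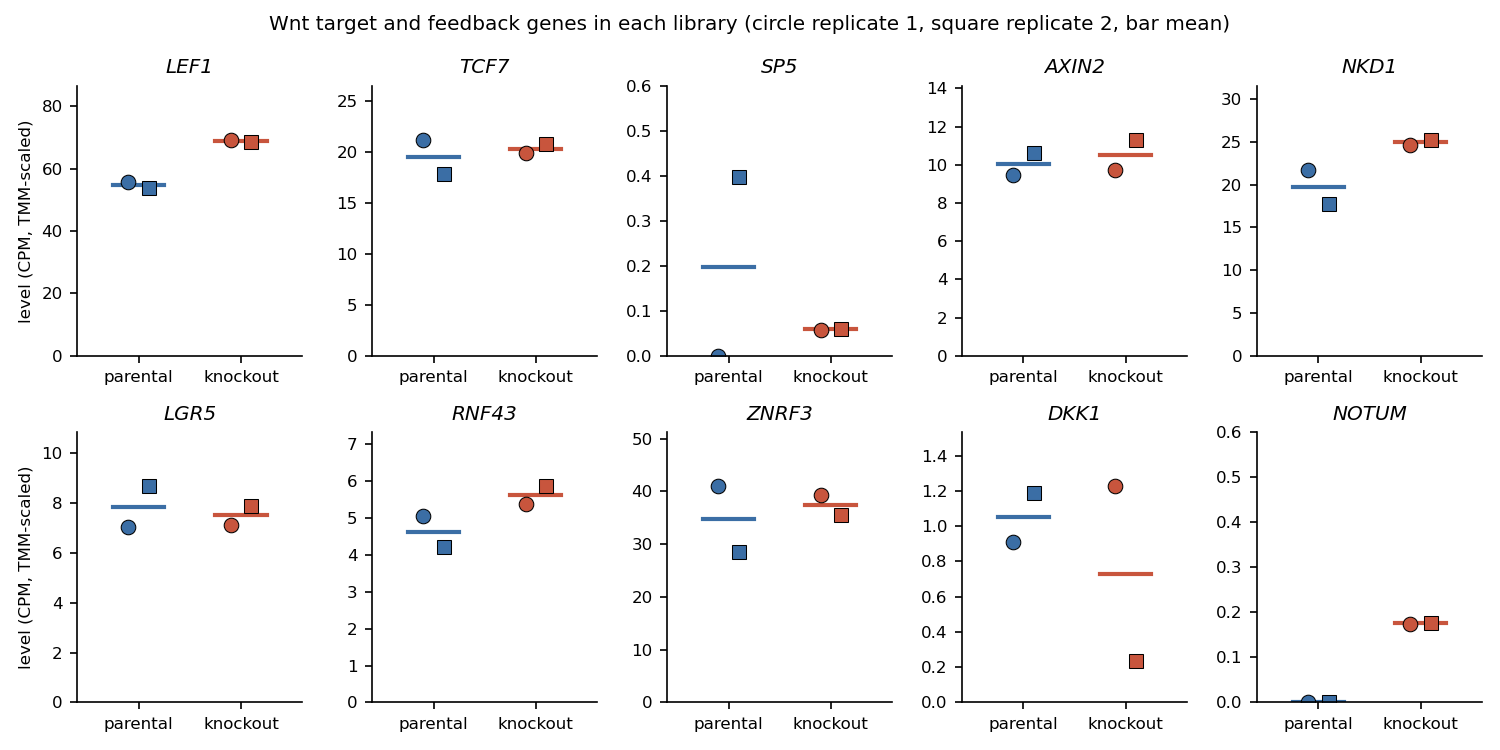
Level of each of the 10 genes in each library, in CPM scaled with TMM factors, with parental cells in blue and knockout cells in red, circles for replicate 1, squares for replicate 2 and bars for the mean of 2 libraries. Each panel has its own axis from 0, and the groups stand apart for LEF1 (53.7 and 55.6 against 68.5 and 69.2), NKD1, RNF43 and the barely detected NOTUM.

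Among the transcription factors, LEF1 (ENSG00000138795, chromosome 4, 108047545 to 108168956, minus strand, GRCh38), which brings beta-catenin to DNA and is itself a Wnt target in many cells, had 979 and 676 reads in parental cells, then 1185 and 1158 in knockout cells. This corresponds to 55.6 and 53.7 CPM against 69.2 and 68.5, and every knockout value lay above every parental one. The mean went from 54.6 ± 1.38 to 68.8 ± 0.458 CPM (SD, n = 2). The fold change was 1.26 with a 95% interval of 1.04 to 1.53 (log2 0.33, SE 0.12, edgeR adjusted p = 0.270). It missed the threshold over all genes. Without parental replicate 1 it did pass (log2 0.36, edgeR adjusted p = 0.0481), as did 11.4% of all genes tested then, where the remaining parental library is assumed to vary like the knockout pair. Summed over its protein-coding transcripts alone, a setting chosen after the data were seen, the change was 0.14 (edgeR adjusted p = 0.762). The exons of LEF1 share 279 bases with LEF1-AS1 on the opposite strand, which held 0 to 18 reads per library.

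TCF7 (ENSG00000081059, chromosome 5, 134114711 to 134151865, plus strand), the family member known as TCF1, had 21.2 and 17.9 CPM in parental cells, then 19.9 and 20.8 in knockout cells. The knockout values lay between the parental ones. Its log2 fold change was 0.06 (SE 0.18, 95% interval -0.35 to 0.46, edgeR adjusted p = 0.928), and its sign turned in 3 of 15 settings. TCF7 exons share 210 bases with SKP1 on the opposite strand, which held 2094 to 2947 reads per library. How reads in shared bases were divided depends on a strand setting that is not given in the sources used here.

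SP5 (ENSG00000204335, chromosome 2, 170715351 to 170718078, plus strand), a zinc finger repressor that is a direct Wnt target in embryonic cells, was close to absent. It had 0 and 5 reads in parental cells and 1 read in each knockout library. Only the 5 reads of parental replicate 2 exceed the limit of 3 counts that a count of 0 allows, which corresponds to 0.170 to 0.238 CPM. SP5 was not tested, and no fold change is given.

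Of the feedback genes that act inside the cell, AXIN2 (ENSG00000168646, chromosome 17, 65528563 to 65561647, minus strand), a scaffold protein gene often used as a Wnt readout, had 167 and 134 reads in parental cells, then 167 and 191 in knockout cells. In CPM these were 9.49 and 10.6 against 9.75 and 11.3. The groups overlapped, with means of 10.1 ± 0.813 and 10.5 ± 1.10 CPM (SD, n = 2). The log2 fold change of 0.07 (SE 0.22, 95% interval -0.45 to 0.58, edgeR adjusted p = 0.931) corresponds to a fold change of 1.05 with an interval of 0.734 to 1.49.

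NKD1 (ENSG00000140807, chromosome 16, 50548330 to 50649249, plus strand), a Dishevelled-binding inhibitor, had 381 and 223 reads in parental cells, then 422 and 426 in knockout cells. At 21.6 and 17.7 CPM against 24.6 and 25.2, both knockout values lay above both parental ones. The log2 fold change was 0.34 (SE 0.18, 95% interval -0.07 to 0.74, edgeR adjusted p = 0.437), the most positive of the 8 and close to that of LEF1. The fall of DKK1 was larger in size. The 20 tested genes nearest to NKD1, 10 on each side, had a median log2 fold change of 0.20, and 1 of them passed the test. That gene is TOX3 (log2 4.81, edgeR adjusted p = 0.0100), named after its value was seen. Next to LEF1 the corresponding median was 0.09, with 0 passing. For the other 8 members the medians of the neighbours ran from -0.15 beside NOTUM to 0.17 beside DKK1, with 0 passing.

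At the receptor, LGR5 (ENSG00000139292, chromosome 12, 71439770 to 71586310, plus strand), an R-spondin receptor known as a stem cell marker of the gut, had 7.05 and 8.65 CPM in parental cells, then 7.12 and 7.87 in knockout cells. Both knockout values lay between the parental ones. Its log2 fold change was -0.06 (SE 0.26, 95% interval -0.65 to 0.53, edgeR adjusted p = 0.944), and it was positive in 4 of 15 settings.

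RNF43 (ENSG00000108375, chromosome 17, 58352500 to 58417595, minus strand) and ZNRF3 (ENSG00000183579, chromosome 22, 28883592 to 29057487, plus strand) encode related membrane ubiquitin ligases that clear Frizzled from the surface. RNF43 had 89 and 53 reads in parental cells, then 92 and 99 in knockout cells, or 5.06 and 4.21 CPM against 5.37 and 5.86. Both knockout values were higher, by a log2 fold change of 0.27 that is smaller than its error (SE 0.30, 95% interval -0.41 to 0.95, edgeR adjusted p = 0.730). ZNRF3 had 720 and 359 reads in parental cells, then 674 and 599 in knockout cells, or 40.9 and 28.5 CPM against 39.3 and 35.4. The knockout values of ZNRF3 lay between the parental ones, and its log2 fold change was 0.10 (SE 0.19, 95% interval -0.33 to 0.54, edgeR adjusted p = 0.858). Without parental replicate 2, the library that stands apart, the ZNRF3 value was -0.13. RNF43 shares 143 exon bases with SUPT4H1 on the same strand, which held 345 to 612 reads per library, more than RNF43 itself. It also shares 1521 with TSPOAP1-AS1 (opposite strand, 8.26 to 22.2 reads) and 4326 with AC004687.2 (same strand, 0 reads). RNF43 counts are therefore less certain than those of ZNRF3, which shares none. AXIN2 shares 1316 exon bases with AC004805.1 on the same strand, which had 0 reads. On the opposite strand LGR5 shares 208 with AC078860.1 (0 to 7 reads) and NKD1 67 with AC007608.1 (9 to 22 reads).

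The secreted antagonists were near the detection limit. DKK1 (ENSG00000107984, chromosome 10, 52314296 to 52318042, plus strand), which blocks the LRP co-receptors, had 16 and 15 reads in parental cells, then 21 and 4 in knockout cells. At 0.909 and 1.19 CPM against 1.23 and 0.237, the knockout libraries held both the highest and the lowest value. The log2 fold change of -0.51 had an interval from -2.33 to 1.31 (SE 0.80, edgeR adjusted p = 0.827), and 1 knockout library decided it. It was 0.23 without knockout replicate 2 and -2.10 without knockout replicate 1. Antisense PRKG1-AS1, which shares 212 exon bases with DKK1, had 7 to 21 reads per library.

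NOTUM (ENSG00000185269, chromosome 17, 81952507 to 81961840, minus strand), the enzyme that strips the lipid from Wnt proteins, had 0 reads in both parental libraries and 3 in each knockout library. With 3 counts as the limit that a count of 0 allows, both groups lay at or under it and no fold change is given. The 3 reads were assigned to NOTUM-203 in knockout replicate 1 and to the retained-intron transcript NOTUM-204 in replicate 2, so the libraries did not share a transcript.

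**Figure D2:**
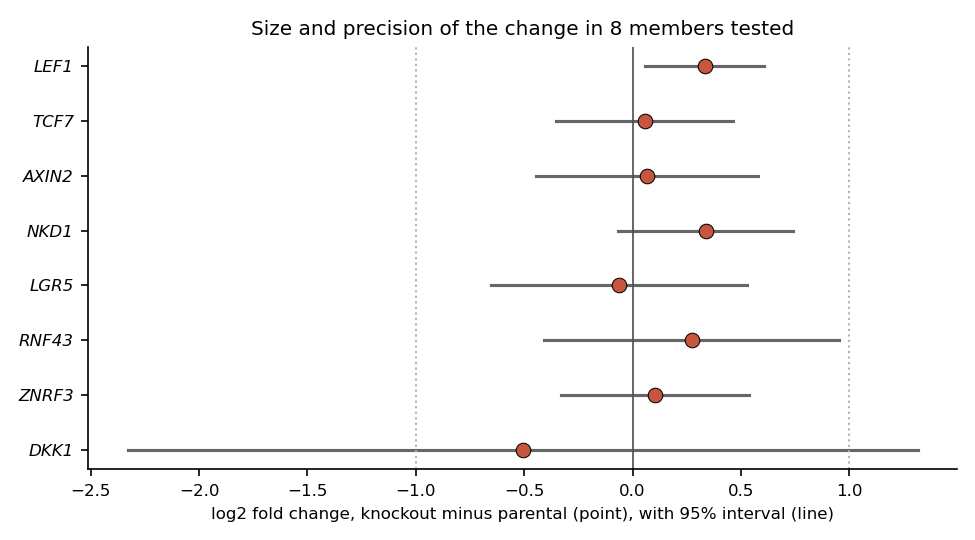
Log2 fold change of the 8 tested genes (points, knockout minus parental, edgeR) with the 95% interval (lines), where dotted lines mark a 2-fold change in either direction. The interval of LEF1 (0.06 to 0.61) leaves out 0, 7 intervals stay within the dotted lines, and that of DKK1 (-2.33 to 1.31) does not.

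A gene's total can stay level while its transcripts shift, and LEF1 and TCF7 in particular make short proteins that lack the part that binds beta-catenin. Across all genes, 65 of 9517 (0.683%) changed the usage of their transcripts (edgeR diffSpliceDGE, Simes p, Benjamini-Hochberg adjustment). That count was 2 without parental replicate 2 and 0 without knockout replicate 1 or 2. Of the members, TCF7 with 4 transcripts, LEF1 with 7, LGR5 with 2 and AXIN2 with 3 could be tested. None of these 4 passed (edgeR unadjusted p = 0.966, 0.926, 0.704 and 0.781), 0 lay at an unadjusted p under 0.05, and 0 passed with the gene-level F test. The other members had fewer than 2 transcripts with enough reads. The test does not see the error made when reads are divided among overlapping transcripts.

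Most LEF1 reads did not lie on protein-coding transcripts. LEF1 has 21 annotated transcripts in the tables, 16 of them with reads, and transcripts annotated as processed (with no stated reading frame) took 570 and 343 of its reads in parental cells, then 732 and 650 in knockout cells. That was 58.3 and 50.7% against 61.8 and 56.1% of LEF1 reads, and the groups overlapped. Protein-coding transcripts took 395 and 324 reads in parental cells, then 442 and 487 in knockout cells. Among single transcripts, the processed LEF1-205 held 22.8 and 17.5% of LEF1 TPM in parental cells, then 20.5 and 24.1% in knockout cells. LEF1-206, also processed, held 38.9 and 11.3% against 39.2 and 22.9%. The parental pair thus differed by more on LEF1-206 than the groups did. LEF1-215 held 0 and 19.9% in parental cells against 5.6 and 3.7% in the knockout, and LEF1-218, which is protein coding and starts downstream, held 0.7 and 12.1% against 4.1 and 2.8%. The high parental value of both was that of replicate 2.

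Among LEF1 transcripts with an annotated start codon, those with the most upstream one held 97.0 and 58.3% of the TPM in parental cells, then 77.0 and 78.0% in knockout cells. The knockout values lay between the parental ones, with means of 77.7 ± 27.3 and 77.5 ± 0.721% (SD, n = 2; two-sided exact permutation p = 1, where the smallest p that 2 against 2 allows is 0.33). Transcripts with the downstream start codon, LEF1-218 and LEF1-221, rested on 2.35 and 47.1 reads in parental cells, then 26.2 and 36.8 in knockout cells. In TCF7 the transcripts with the start codon of its leading transcripts held 100 and 92.9% against 100 and 89.6%, a difference of -1.68 percentage points (two-sided exact permutation p = 1). That start codon (134115938) itself lies downstream of the start codon of TCF7-201 and TCF7-204 (134114907). Both of these transcripts stayed under 1 TPM, so the rule for the reference passed over them. TCF7-201 took 18.3 reads in knockout replicate 2, TCF7-204 took 8.70 in parental replicate 2, and neither had any elsewhere. In every library 0 reads were assigned to TCF7 transcripts with a start codon further downstream than 134115938. Whether any of these transcripts encodes a protein without the beta-catenin binding part was not examined.

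Retained-intron transcripts took 47.6 to 61.2% of TCF7 reads in the 4 libraries, and coding ones 38.5 to 51.8%. On the TPM scale the retained-intron transcripts held 51.9 and 52.5% of TCF7 TPM in parental cells, then 48.3 and 53.1% in knockout cells, and the groups overlapped. The coding transcript TCF7-203 held 36.0 and 41.4% against 44.0 and 31.3%. For LGR5, retained-intron transcripts took 8.25 and 7.82 reads in parental cells, then 5.30 and 42.0 in knockout cells, with knockout replicate 2 standing apart from the other libraries. On the TPM scale they held 41.7 and 6.36% of LGR5 TPM in parental cells, then 44.9 and 42.6% in knockout cells. There parental replicate 2 stood apart instead. ZNRF3 had all its reads on 1 of its 3 transcripts, ZNRF3-203. NKD1 had 98.2 to 99.7% of its reads on NKD1-201, a transcript of 17105 bases.

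**Figure D3:**
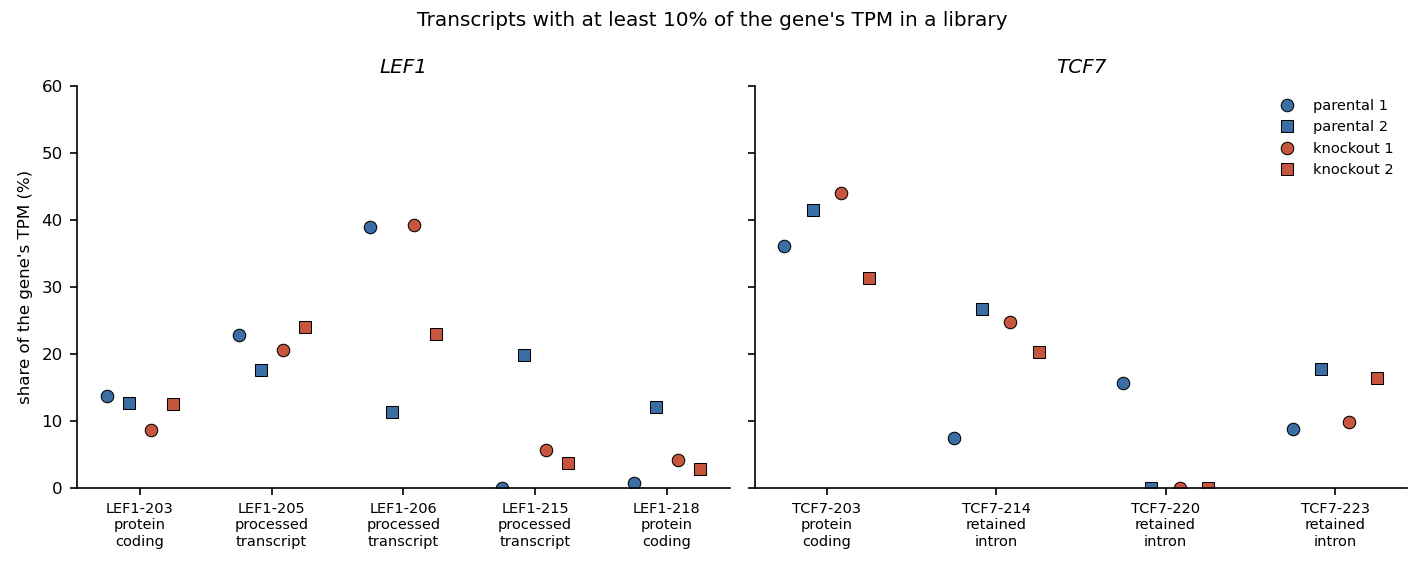
Share of the gene's TPM (%) held by each LEF1 and TCF7 transcript that reached 10% in a library, with blue for parental, red for knockout, circles for replicate 1 and squares for replicate 2, and the annotated transcript type under each name. The parental libraries lie far apart for LEF1-206 (38.9 and 11.3%), LEF1-215 and TCF7-214, and no transcript separates the groups by more than it separates libraries of 1 group.

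Short transcripts decided some TPM values. On deposited TPM, RNF43 stood at 0.735 and 0.545 in parental cells, then 1.33 and 1.28 in knockout cells. Of the knockout values, 37.5 and 27.3% came from RNF43-204, a processed transcript of 497 bases with 2.68 and 1.95 reads in the knockout libraries and 0 in the parental ones. AXIN2-205, a retained-intron transcript of 588 bases, held 19.6 and 10.7% of AXIN2 TPM in the knockout with 7.58 and 2.37 reads. The coding AXIN2-204, of 976 bases, held 45.7 and 3.09% of AXIN2 TPM in parental cells, then 51.1 and 0% in knockout cells. It thus differed widely between libraries of 1 group, on 23.3 and 1.28 reads against 41.2 and 0. With deposited TPM, 52.1% of all tested genes were higher in both knockout libraries than in both parental ones and 5.7% were lower, and of the 8 tested members 5 were higher and 0 lower. With an offset for transcript length in the edgeR fit, RNF43 had a log2 fold change of 0.62 and an adjusted p = 0.534.

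The other genes of the pathway were read from 8 lists of 118 genes, of which 91 could be tested. With edgeR 0 of them passed, beside 0.833% of all genes, with limma voom 0 (0.812%) and with DESeq2 2 (2.48% of all genes). The edgeR count was 13 of 93 without parental replicate 1 and 8 of 92 without parental replicate 2, beside 11.4 and 9.27% of all genes tested then. It was 1 without either knockout library, beside 1.05% without replicate 1 and 1.01% without replicate 2. At an unadjusted p under 0.05 lay 16 of the 91, 14 higher and 2 lower in the knockout, beside 14.3% of all genes (6.58% higher and 7.67% lower). Fitted changes were positive for 59 and negative for 32, beside 9299 and 9185 over all tested genes, with a median log2 fold change of 0.11. The median was 0.22 for 10 of 19 ligands, -0.21 for 2 secretion factors, 0.14 for 16 receptors and co-receptors and -0.002 for 16 genes of the destruction complex and relay. It was 0.08 for 14 nuclear partners, -0.21 for 11 of 17 other antagonists and 0.27 for 21 of 28 other target genes, beside 0.002 over all tested genes. Of 6 R-spondins and their receptors only LGR4 was tested, and RSPO2, the ligand among them with the highest deposited TPM averaged over both groups but not in parental cells alone, had 10 and 0 reads in parental cells against 8 and 6 in the knockout.

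The 2 genes of each list with the highest deposited TPM averaged over both groups are given here. By parental TPM alone, WNT2B would stand in place of WNT10B and PTK7 in place of LRP6. CTNNB1, which encodes beta-catenin, had 547 and 425 CPM in parental cells, then 501 and 473 in knockout cells, with a 95% interval of its log2 fold change of -0.31 to 0.32 (edgeR adjusted p = 0.999). The kinase gene CSNK1E had log2 0.11 (edgeR adjusted p = 0.703). WNT5A, the ligand with the highest TPM in both groups and one that often signals without beta-catenin, had 71.9 and 79.3 CPM against 78.6 and 76.8 (edgeR adjusted p = 0.922). For CTNNB1 and WNT5A the knockout values lay between the parental ones. WNT10B, a ligand of the beta-catenin branch, had 3.18 and 3.73 CPM against 4.73 and 5.50 (log2 0.57, SE 0.32, edgeR adjusted p = 0.472). Of the secretion factors, WLS, the carrier of Wnt proteins, had log2 0.05 and PORCN, the acyltransferase that adds their lipid, -0.46 (edgeR adjusted p = 0.912 and 0.506). The receptors LRP6 and RYK had log2 0.16 and 0.18 (edgeR adjusted p = 0.592 and 0.616).

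LGR4, the R-spondin receptor related to LGR5, had 65.3 and 62.1 CPM in parental cells, then 85.7 and 82.9 in knockout cells, and the groups did not overlap (log2 0.40, SE 0.12, edgeR adjusted p = 0.180). TLE4, a co-repressor of TCF and LEF proteins, had 196 and 153 CPM against 138 and 125 (log2 -0.41, SE 0.15, edgeR adjusted p = 0.266), and AES, a short member of that family, had log2 0.15. The antagonists KREMEN1, a partner of DKK1, and NKD2, the relative of NKD1, had log2 -0.21 and -0.29 (edgeR adjusted p = 0.641 and 0.722). Among other targets, MYC had 201 and 238 CPM against 216 and 228 (edgeR adjusted p = 0.971) and ID2, an inhibitor of helix-loop-helix factors, had 70.6 and 72.5 against 101 and 85.5 (log2 0.38, SE 0.13, edgeR adjusted p = 0.248). None of these values passed over all genes. LGR4 passed without either parental library (log2 0.44 and 0.37), and TLE4 and ID2 passed without parental replicate 2 (log2 -0.58 and 0.40).

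The 2 genes that passed with DESeq2 were chosen for mention after their values were seen. MSX2, a homeobox gene that is also a target of BMP signalling, had 370 and 137 reads in parental cells, then 743 and 586 in knockout cells, or 21.0 and 10.9 CPM against 43.4 and 34.7. All knockout values lay above the parental ones (log2 1.28, SE 0.28, edgeR adjusted p = 0.0928, DESeq2 adjusted p = 0.00073). FZD1, a Frizzled receptor, had 13.3 and 9.29 CPM against 21.0 and 20.6 (log2 0.87, SE 0.22, edgeR adjusted p = 0.133, DESeq2 adjusted p = 0.0496). MSX2 passed the edgeR test when any 1 library was left out, with log2 values from 0.89 to 1.84, and FZD1 passed without either parental library (1.16 and 0.64). At an unadjusted p under 0.05, 14 pathway genes were higher and 2 lower. The 2 lower ones were TLE4 and CTNNBIP1, which encodes a small protein that keeps beta-catenin from TCF factors. Of the 11 other antagonists tested, 2 were higher at that p and 0 lower, SFRP1 among them (log2 1.10, SE 0.27, edgeR adjusted p = 0.132). CTNNBIP1 and SFRP1 were also named after their values were seen. CTNNBIP1 had 7.33 and 8.34 CPM in parental cells against 4.03 and 3.67 in the knockout (log2 -1.02, SE 0.29, edgeR adjusted p = 0.164). No tested member had a change as large as that of FZD1 with an interval that leaves out 0.

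**Figure D4:**
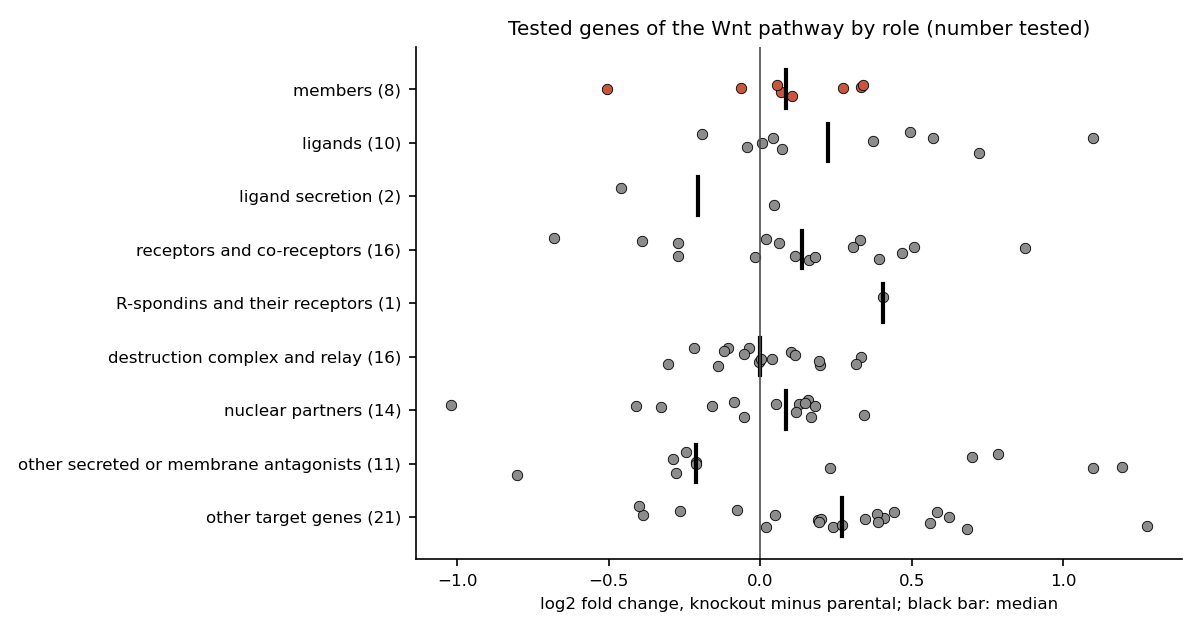
Log2 fold change (knockout minus parental) of each tested gene of the pathway by role, with the 8 tested members in red, other genes in grey and black bars for the median of each role. Points of every role with more than 1 gene lie on both sides of 0, the median is highest for the single R-spondin receptor LGR4 (0.40) and the other target genes (0.27), and MSX2 (1.28) is the rightmost point.

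The members' directions held unevenly under 15 settings of the test, scaling, filter, length offset, block, transcripts summed and libraries left out. LEF1 (0.14 to 0.43), NKD1 (0.13 to 0.49) and RNF43 (0.15 to 0.62) were positive in all 15. ZNRF3 was positive in 14 (-0.13 to 0.39), AXIN2 in 12 (-0.04 to 0.27) and TCF7 in 12 (-0.12 to 0.18), and LGR5 (-0.30 to 0.09) was negative in 11. DKK1 was negative in 14 (-2.10 to 0.23). LEF1 passed the threshold in 1 of the 15, without parental replicate 1, and the other 7 in 0.

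**Figure D5:**
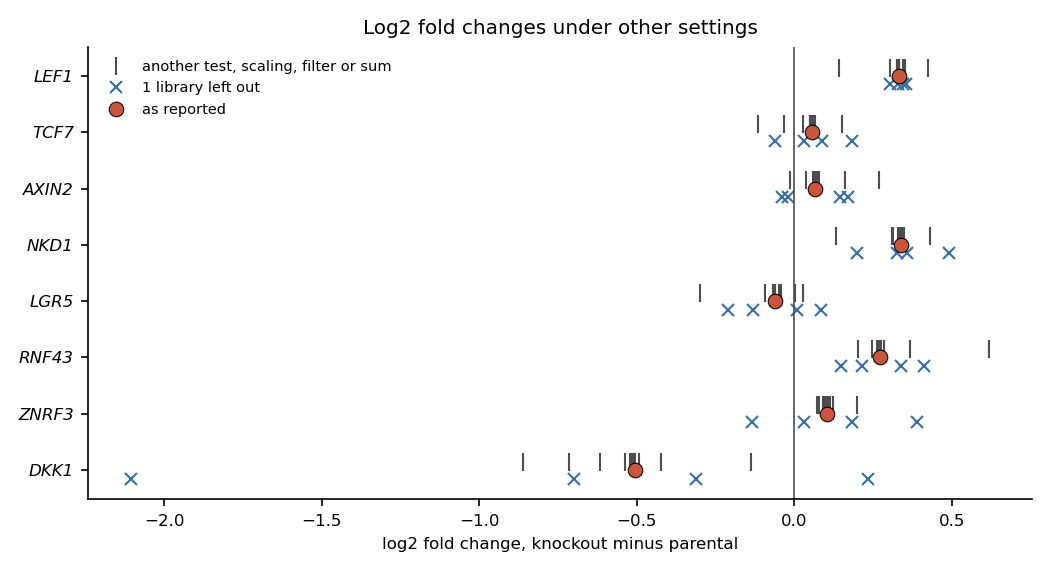
Log2 fold change (knockout minus parental) of the 8 tested genes as reported (red circles), under another test, scaling, filter or sum (black ticks) and with 1 library left out (blue crosses). LEF1, NKD1 and RNF43 stay right of 0 throughout, and DKK1 spans -2.10 to 0.23.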

How the data were processed

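Total RNA-seq of 2 parental and 2 LARP7 knockout HEK293 libraries was analysed from the deposited transcript tables. RNA was isolated with TRIzol and libraries made with the Ovation SoLo kit, per the labels' protocols. Per the file headers, the authors gave an estimated count, TPM (abundance per length, scaled to a fixed sum) and an effective length for each transcript, in the layout of Salmon. The submitters' processing notes also name cutadapt 1.6, STAR 2.5.3a, SAMtools 1.3.1, Picard, R 3.3.3 and 3.5.1, edgeR 3.24.3 and build hg38. The tool behind each value, the strand setting and the annotation release were not given in the sources used here.

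Of 198002 transcripts, 197318 matched GENCODE release 29 and the 684 others held 0.0631 to 0.0711% of reads. Estimated counts were added up within each gene, then rounded. Genes were tested with edgeR 4.0.16 in R 4.3.3 (filterByExpr, TMM factors, quasi-likelihood F test, Benjamini-Hochberg adjustment over all genes tested, threshold 0.05), on all 4 libraries and group alone. The SE is the log2 fold change over the root of F. Transcript usage used diffSpliceDGE on transcripts with at least 10 reads and 5% of the gene in 2 libraries. A start codon counted as upstream if it was the most upstream of those of coding transcripts with at least 1 TPM in a library. In TCF7 this rule passed over the start codon of TCF7-201 and TCF7-204, which lies further upstream. Alternatives were DESeq2 1.42.0, limma 3.58.1 voom, other factors, filters and share minimums, a length offset, a fit on protein-coding genes, a block for the replicate number, and leaving out each library in turn. A sum over protein-coding transcripts only was added after the data were seen. Steps were tested on simulated data. Limits for a count of 0 (3 counts) cover counting error only.

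The members and the pathway lists were chosen with earlier results of these data known. Text names all members, their transcripts with at least 10% of TPM where they carry a result, and the 2 pathway genes per list with the highest mean TPM, besides LARP7 and 7SK. MSX2, FZD1, CTNNBIP1, SFRP1 and TOX3 were named after their values were seen. The RN7SK name belongs to a second entry at the 7SK locus with 0 reads, so the entry that holds the reads was used.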

Additional observations from a re-analysis of the deposited data

How the results depend on the processing

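The number of members that passed stayed at 0 under 10 other settings and under the sum over protein-coding transcripts, which was chosen after seeing the data, and was 0 to 1 with 1 library left out. The number over all genes, 154, became 459 with DESeq2, 831 without a filter on low counts, 90 with a length offset and 200 to 2265 with 1 library left out. With library size alone, 106 were higher and 82 lower. Other pathway genes that passed, 0, became 2 with DESeq2, 5 without a filter (beside 2.64% of all genes) and 1 to 13 with 1 library left out. Genes with changed usage, 65, became 115 with the F test, 132 with no minimum share, 21 with a minimum of 10% and 0 to 88 with 1 library left out, while members stayed at 0.

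Replicate numbers stand in file names only, and deviations of same-numbered libraries had a correlation of 0.16 over 18484 genes with 2 pairs, which does not decide whether the numbers pair the libraries. They were treated as unpaired. With the number as a replicate block, 1656 genes (8.96%), 0 members and 11 other pathway genes, LGR4, TLE4 and ID2 among them, passed, and 0 genes for usage.

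Directions turned for these log2 fold changes. With library size alone LGR5 was 0.029. With the length offset TCF7 was -0.034, LGR5 0.0027 and NKD2 0.015. Over protein-coding genes only, CTNNB1 was -0.026 and MYC -0.014, and CTNNB1 was -0.0047 with DESeq2 and -0.0046 with RLE factors. Summed over protein-coding transcripts, AXIN2 was -0.014, TCF7 -0.12, WNT5A -0.0057, PORCN 0.26, CTNNB1 -0.044 and MYC -0.024. With 1 library left out, AXIN2 ran from -0.040 to 0.17, TCF7 from -0.063 to 0.18, LGR5 from -0.21 to 0.086, ZNRF3 from -0.13 to 0.39 and DKK1 from -2.10 to 0.23. WNT5A then ran from -0.033 to 0.11, WLS from -0.029 to 0.12, CTNNB1 from -0.17 to 0.19, AES from -0.0068 to 0.31 and MYC from -0.10 to 0.14. The cause was not tested. The share of LEF1 with the upstream start codon differed by -19.4 to 19.2 points with 1 library left out. The share of TCF7 with the start codon of its leading transcripts then differed by -6.90 to 3.54 points. Depth limits DKK1, SP5 and NOTUM.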
